A study of Mus musculus with 39 samples.

Results

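Breast tissue of mice labelled Quadruple (SB/Tg/K5Cre/Bcat) was compared with normal mammary gland on Affymetrix mouse expression arrays. By their genotype label 19 arrays were quadruple breast, by their tissue label 4 arrays were normal gland, and these made 23 of the 39 arrays of the series. The quadruple arrays came from 15 animals, because titles shared an animal identifier: quadruple 1 and 12 came from 1 animal, as did quadruple 8, 9 and 10, and quadruple 18 and 19. Normal glands 1 to 4 came from 4 animals. Normal gland 1 was from a Triple (SB/Tg/Bcat) animal, normal gland 2 from a Quadruple (SB/Tg/K5Cre/Bcat) animal, and normal glands 3 and 4 from Triple (SB/Tg/k5Cre) animals that each also gave a breast array. Every array of both groups therefore carried SB and Tg, and no gland of an animal without them entered. Sleeping Beauty, a transposon system, is named in the title of the series. The labels do not spell out the elements. K5Cre is the usual name of a Cre recombinase driven by the keratin 5 promoter, which is active in basal cells of stratified epithelia. The labels call the quadruple samples breast and not tumour, and they give no age, sex or region of the tissue taken.

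The mammary gland is a tree of ducts lying in a pad of fat, with an inner layer of luminal cells and an outer layer of contractile basal cells. Beta-catenin, encoded by Ctnnb1, holds cells together at adherens junctions and carries the Wnt signal into the nucleus, where it switches on genes such as Axin2. Sustained beta-catenin signalling in mouse mammary epithelium is known to turn cells towards an epidermal fate with keratinised layers. The Sleeping Beauty transposon jumps within the genome when its transposase is present and is used to find genes whose disruption drives tumours. The thin muscle sheet under the skin lies next to the gland.

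Values are the deposited log2 values, on which 1 unit is a 2-fold difference, and gland values are given in the order of glands 1 to 4. Differences are quadruple minus normal gland, fitted with limma, and a gene was called at an adjusted p under 0.05 over all 18194 genes. The tissue was bulk, so fewer cells of a type and less RNA per cell cannot be told apart. The p-values measure the spread between these samples, and 4 glands limit their precision.

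The epithelial markers were present in both groups. Epcam, an adhesion protein of epithelial cells, lay between 8.13 and 12.88 (median 12.12) in quadruple arrays, against 11.7, 12.15, 12.38 and 12.4 in the glands. Quadruple 8 was the lowest. Krt8, a keratin of simple and luminal epithelium, lay between 10.39 and 13.8 (median 12.24) in quadruple arrays, against 12.43, 12.43, 13.53 and 13.04 in the glands. Krt14, a basal keratin, lay between 7.76 and 13.99 (median 12.96) in quadruple arrays, against 11.24, 8.63, 9.53 and 9.81 in the glands. Krt5 lay between 9.44 and 12.73 (median 12.12) in quadruple arrays, against 10.83, 9.12, 9.73 and 9.51 in the glands. Neither basal keratin passed the test (difference 2.17, SE 0.91, limma adjusted p = 0.107 for Krt14 and difference 1.55, SE 0.7, limma adjusted p = 0.135 for Krt5), and Krt8 (difference -0.72, SE 0.56, limma adjusted p = 0.439) and Epcam (difference -0.26, SE 0.52, limma adjusted p = 0.812) did not either. Krt5 was called with the arrays of these groups alone (limma adjusted p = 0.0228) and without the 3 arrays low in Xist (adjusted p = 0.016), and both basal keratins were with array weights (adjusted p = 0.000233 for Krt14 and 0.000148 for Krt5).

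Some arrays stood apart from their group. Normal gland 1 was high in skin genes: its mean over the list of suprabasal and wound keratins was 8.56, with 5.35, 5.07 and 5.33 in glands 2, 3 and 4. Normal gland 3 and quadruple 5 were low in Xist, the RNA that coats the inactive X chromosome, at 3.49 and 3.81. In the other quadruple arrays Xist was 9.18 or higher, and in the other glands it lay between 10.44 and 10.67. Quadruple 9 had the lowest mean of mitosis genes (6.5) with high means of white adipocyte (11.01), skeletal muscle (10.66) and milk protein genes (13.76). Quadruple 2 had the highest adipocyte mean of its group (11.96) and the highest B and plasma cell mean (9.17). Quadruple 8 had the highest mean of interferon-stimulated genes (10.74) and of T and NK cell genes (7.87).

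Across all genes, 2769 were called, 15.2% of those tested. Of these, 1024 (5.63%) were higher in quadruple breast and 1745 (9.59%) were lower. At least 2-fold apart were 285 of the higher and 916 of the lower genes, and at least 8-fold apart were 9 higher and 176 lower genes. In lists of 10 to 20 genes 1 or 2 falls, or 1 rise, are near these shares, and nothing is read from such counts. The lists were chosen with earlier results of these data known. List counts set beside these shares are therefore descriptions and not tests. The median difference over all genes was 0.008 on the log2 scale. In 462 genes (2.54%) the 19 quadruple arrays and the 4 glands did not overlap, 123 of them higher and 339 lower in quadruple breast. The number called was 1654 without normal gland 3, and 1729 without the 3 arrays of the series low in Xist. With the adipocyte and skeletal muscle list means of each array as covariates 65 genes were called, 64 of them among the 2769; the adipocyte means of the groups did not overlap, so that fit extrapolates.

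**Figure D1:**
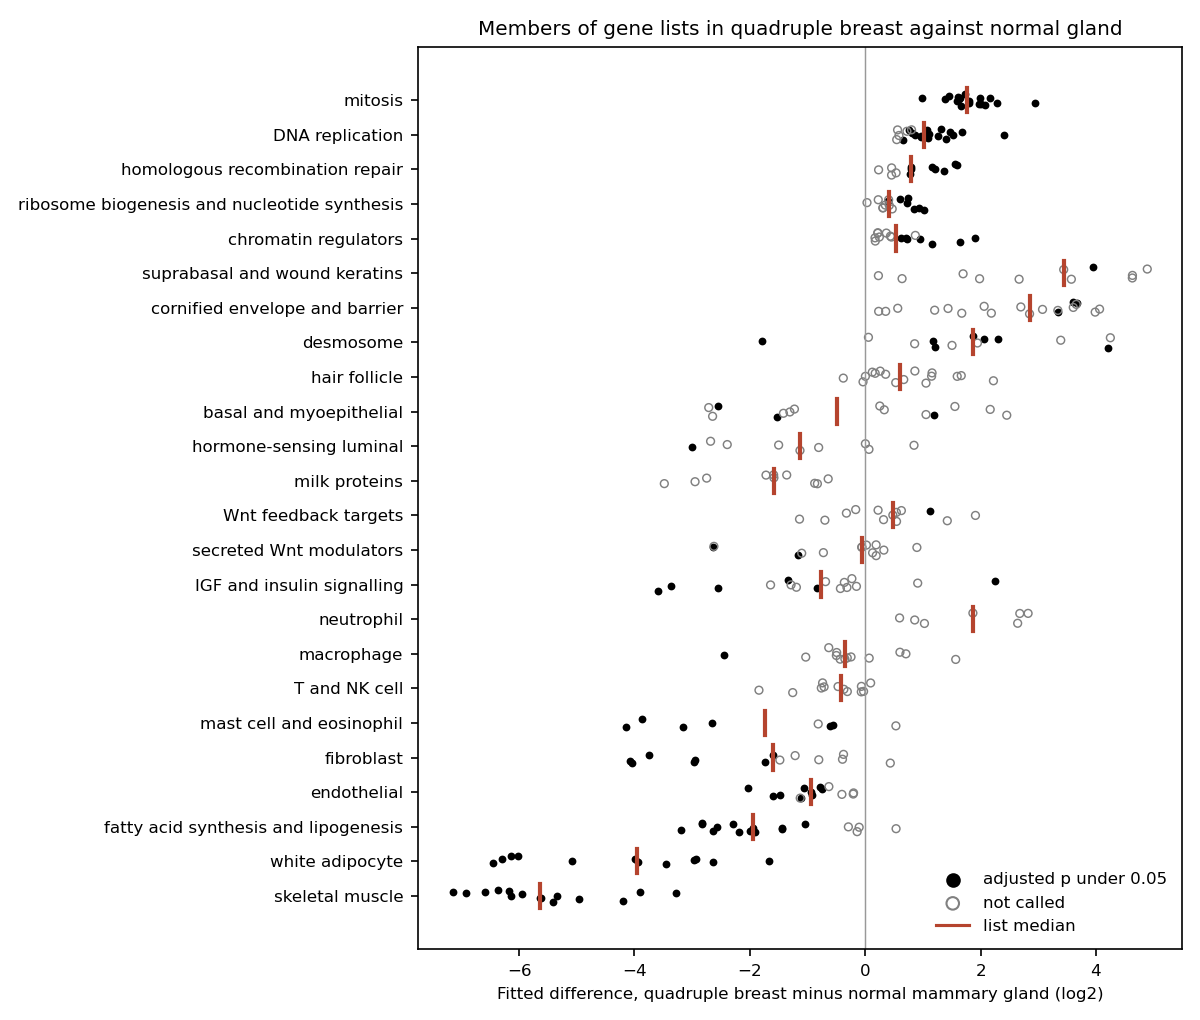
Fitted difference of each measured member of 24 gene lists on the log2 scale, quadruple breast (19 arrays) minus normal mammary gland (4 arrays). Filled points passed adjusted p under 0.05, open points did not, and red bars are list medians; the mitosis members all lie above 0 (median 1.77), the white adipocyte (median -3.96) and skeletal muscle (median -5.64) members all lie below it, and the keratin and cornified envelope members lie above it with few calls.

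Genes of cell division were higher in quadruple breast. All 18 measured members of the mitosis list of 19 rose, with differences from 0.98 to 2.95 and a median of 1.77, against 5.63% of all genes called higher. The list mean lay between 6.5 and 9.02 (median 8.19) in quadruple arrays, against 6.15, 6.28, 5.55 and 6.7 in the glands. Only quadruple 9 fell within the range of the glands.

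Cenpe, a kinesin that moves chromosomes to the middle of the spindle, lay between 6.08 and 8.88 (median 7.89) in quadruple arrays, against 5.41, 5.22, 3.62 and 4.87 in the glands (difference 2.95, SE 0.44, limma adjusted p = 1.08e-05). Mki67, which coats mitotic chromosomes and is the usual marker of cycling cells, lay between 8.96 and 11.1 (median 10.36) in quadruple arrays, against 8.03, 8.63, 7.24 and 8.72 in the glands (difference 2.07, SE 0.33, limma adjusted p = 2.71e-05). The groups did not overlap for either gene. Plk1, a kinase of mitotic entry and exit, lay between 6.38 and 9.09 (median 8.12) in quadruple arrays, against 5.89, 6.2, 5.51 and 6.35 in the glands (difference 2.01, SE 0.35, limma adjusted p = 0.0001), again without overlap. Bora, an activator of Plk1, lay between 5.25 and 7.5 (median 6.45) in quadruple arrays, against 5.26, 4.94, 4.47 and 4.91 in the glands (difference 1.7, SE 0.27, limma adjusted p = 2.65e-05), and quadruple 9 alone touched the gland range. Smc4, a core subunit of the condensin complexes that compact chromosomes, lay between 9.83 and 11.62 (median 10.65) in quadruple arrays, against 9.56, 9.33, 8.37 and 8.77 in the glands (difference 1.69, SE 0.27, limma adjusted p = 3.2e-05), with no overlap. Leaving out any gland, quadruple 8 or quadruple 9, or the 3 arrays low in Xist, left at least 17 of the 18 mitosis members called, but none was called with the adipocyte and muscle covariates. In the covariate fit the list median was 0.668, and the median SE over all genes was 0.244, against 0.17 in the main fit.

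Because these genes moved together, their promoters are shown. Genes of mitosis are known to share a CHR element (TTTGAA), bound by the DREAM and B-Myb complexes, and CCAAT boxes, bound by NF-Y. Both motifs were searched on both strands from 250 bases before to 50 after the RefSeq start in mouse build GRCm38.p6; a CHR and a CCAAT box can share an end base. Of the 18 mitosis genes 16 matched a RefSeq promoter. A CHR was found in 11 of them (68.8%), against 18.1% of 27025 promoters, and a CCAAT box in 13 (81.2%), against 37.9%. Both were found in 10 (62.5%), against 7.12% of all promoters. Among 14453 measured genes with a promoter, 13.4% held a CHR, 38.2% a CCAAT box and 5.37% both. The list was made of known mitosis genes, so these shares describe the list and are not a result of the arrays. Of 18 matched DNA replication genes 2 (11.1%) held a CHR and 13 (72.2%) a CCAAT box. The following are 170 bases, from 150 before to 20 after the start, in the direction of the gene, with CHR and CCAAT letters of either strand in capitals. They lie at chr7:135716360-135716529, minus strand for Mki67, chr9:83834539-83834708, plus strand for Ttk, chr11:99024170-99024339, minus strand for Top2a, chr4:118437324-118437493, minus strand for Cdc20 and chr3:135212413-135212582, plus strand for Cenpe. Ttk (a spindle checkpoint kinase), Top2a (a topoisomerase that untangles chromosomes) and Cdc20 (which activates the anaphase-promoting complex) were chosen after their values and motifs were seen.
Mki67: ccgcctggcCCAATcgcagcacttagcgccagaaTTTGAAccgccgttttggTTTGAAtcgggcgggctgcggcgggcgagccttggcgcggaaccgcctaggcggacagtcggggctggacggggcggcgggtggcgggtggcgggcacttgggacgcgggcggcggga
Ttk: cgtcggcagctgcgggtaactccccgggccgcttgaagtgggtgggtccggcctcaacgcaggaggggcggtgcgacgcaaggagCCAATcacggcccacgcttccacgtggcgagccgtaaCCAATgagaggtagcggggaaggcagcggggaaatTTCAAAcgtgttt
Top2a: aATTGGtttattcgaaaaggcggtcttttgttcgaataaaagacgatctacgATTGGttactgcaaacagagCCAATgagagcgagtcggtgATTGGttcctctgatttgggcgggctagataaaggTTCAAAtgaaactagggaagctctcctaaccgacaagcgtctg
Cdc20: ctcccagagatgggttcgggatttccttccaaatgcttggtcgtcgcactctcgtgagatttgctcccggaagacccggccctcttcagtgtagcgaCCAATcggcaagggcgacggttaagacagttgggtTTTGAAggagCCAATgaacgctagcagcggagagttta
Cenpe: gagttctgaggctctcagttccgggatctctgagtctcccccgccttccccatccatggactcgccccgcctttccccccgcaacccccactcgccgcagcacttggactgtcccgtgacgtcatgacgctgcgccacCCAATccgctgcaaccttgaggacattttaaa
The first 4 were printed because they hold a CHR with at least 1 CCAAT box in these letters, so that is not a result. Plk1 holds a CCAAT box and no CHR in the same stretch and was passed over. Cenpe, the mitosis gene with the largest difference, has a CCAAT box and no CHR in these letters or in the longer window. A match is a description of letters and not evidence of binding.

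DNA replication genes were higher as a group too. Of 22 measured members 17 rose and none fell (median 1.02). Rrm2, the regulated subunit of ribonucleotide reductase, which makes the building blocks of DNA, lay between 7.45 and 10.5 (median 9.38) in quadruple arrays, against 7.07, 7.18, 5.66 and 7.19 in the glands (difference 2.4, SE 0.4, limma adjusted p = 5.64e-05). Its partner subunit Rrm1 lay between 8.44 and 10.42 (median 9.7) in quadruple arrays, against 8.23, 8.33, 8.02 and 8.66 in the glands (difference 1.31, SE 0.22, limma adjusted p = 6.34e-05). Tk1, which salvages thymidine in S phase, lay between 6.82 and 9.43 (median 8.34) in quadruple arrays, against 6.13, 7.02, 5.99 and 7.1 in the glands (difference 1.68, SE 0.34, limma adjusted p = 0.000509). Rrm2 did not overlap between groups, and in Rrm1 and Tk1 only quadruple 9 reached the gland range. Without normal gland 1 or 2, or without the arrays low in Xist, 12 of the replication genes were called.

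Of 12 genes of homologous recombination repair 8 rose and none fell. Brca1, which directs broken DNA to this repair, lay between 5.87 and 8.42 (median 7.44) in quadruple arrays, against 5.41, 5.36, 5.24 and 6.24 in the glands (difference 1.56, SE 0.36, limma adjusted p = 0.00231). Rad54l, a DNA translocase of the same pathway, differed by 1.21 (adjusted p = 0.00254 by limma). Normal gland 4 was the highest gland in both genes. The count was 4 without normal gland 1, and 5 without normal gland 3 or without the arrays low in Xist.

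**Figure D2:**
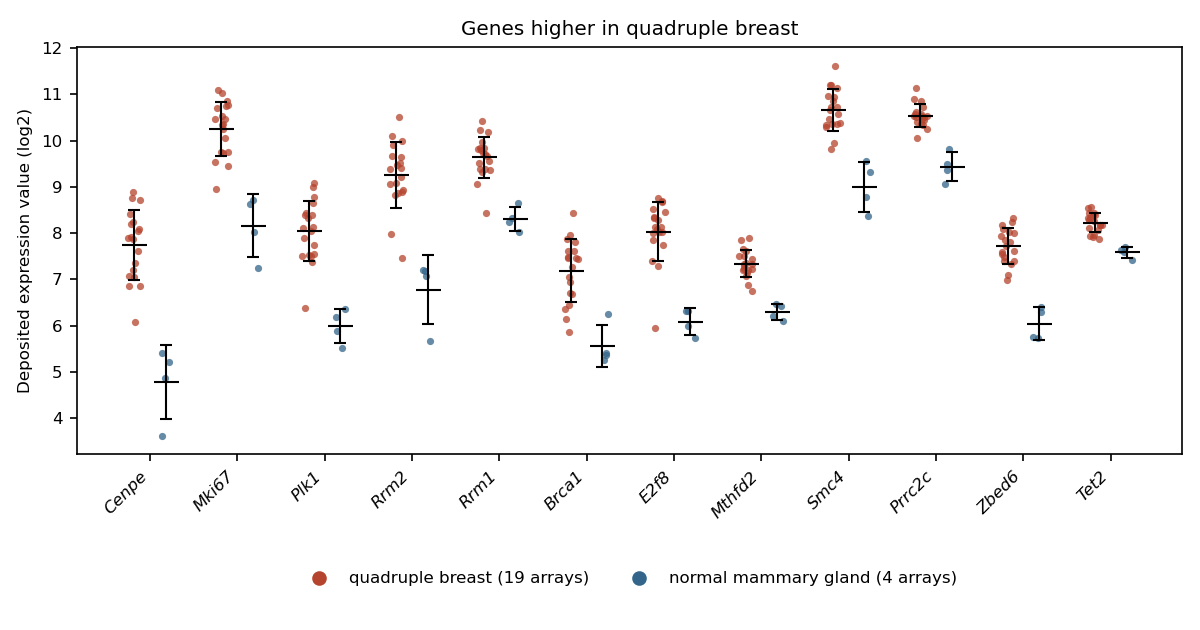
Deposited log2 values of 12 genes higher in quadruple breast, with 1 point per array (19 quadruple breast, left; 4 normal mammary gland, right), and the mean with SD. All but Rrm1, Brca1 and E2f8 have every quadruple array above every gland, as in Cenpe (2.95 on the log2 scale) and Prrc2c (1.11).

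Regulators of entry into the cycle rose in part. Of 16 Myc, cyclin and E2f genes 5 rose and none fell, against 5.63% of all genes called higher. Among them was E2f8, a repressor of the E2f family that peaks in S phase. It lay between 5.95 and 8.75 (median 8.12) in quadruple arrays, against 5.98, 6.31, 5.73 and 6.32 in the glands (difference 1.88, SE 0.34, limma adjusted p = 0.000145). Ccne1, a cyclin that drives cells into S phase, differed by 1.11, SE 0.27, and its paralogue Ccne2 by 1.25, SE 0.39. Cdkn2c, which encodes the inhibitor p18 of the G1 kinases, lay between 8.13 and 11.02 (median 8.92) in quadruple arrays, against 11.1, 11.42, 11.05 and 10.91 in the glands (difference -2.18, SE 0.31, limma adjusted p = 5.35e-06). Quadruple 2, with the highest adipocyte mean, was the single array in the gland range. Cdkn2c was the 1 member that fell among 15 inhibitors and p53 targets, against 9.59% of all genes called lower. Another 5 of them rose, including Gtse1 (difference 1.18, SE 0.23, limma adjusted p = 0.000397) and Sesn2 (difference 1.31, SE 0.28, limma adjusted p = 0.00115). Cdkn1a, the inhibitor p21, lay between 8.68 and 12.1 (median 11.07) in quadruple arrays, against 10.34, 8.77, 8.93 and 8.75 in the glands (difference 1.86, SE 0.5, limma adjusted p = 0.00791). Ccne2 was not called when any gland was left out, nor Cdkn1a without normal gland 4. Without normal gland 2, 3 or 4, 2 of the Myc and cyclin genes were called; without normal gland 4, 3 of the inhibitor and p53 genes were.

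Chromatin regulators and genes of ribosome biogenesis and nucleotide synthesis rose in part, with smaller list medians than mitosis genes. Of 16 chromatin regulators 7 rose and none fell (median 0.54). Tet2, which oxidises methylated cytosine, lay between 7.87 and 8.57 (median 8.25) in quadruple arrays, against 7.6, 7.42, 7.69 and 7.64 in the glands (difference 0.63, SE 0.11, limma adjusted p = 0.000163), without overlap. Uhrf1, which brings the maintenance methyltransferase to new DNA, differed by 1.9, SE 0.38, and Hells, a chromatin remodeller, by 1.64, SE 0.36. Of 15 genes of ribosome biogenesis and nucleotide synthesis 7 rose and none fell (median 0.42). Mthfd2, a mitochondrial enzyme of the folate cycle, lay between 6.74 and 7.9 (median 7.34) in quadruple arrays, against 6.42, 6.46, 6.2 and 6.1 in the glands (difference 1.02, SE 0.16, limma adjusted p = 2.02e-05). Shmt2, which feeds that cycle from serine, lay between 6.7 and 7.82 (median 7.25) in quadruple arrays, against 6.45, 6.42, 6.33 and 6.44 in the glands (difference 0.85, SE 0.19, limma adjusted p = 0.00145). Both folate enzymes were above every gland in all 19 arrays. Nop56, a protein of the particles that methylate ribosomal RNA, differed by 0.74, SE 0.2. Without normal gland 3, 4 genes of this list were called.

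Outside the lists, the rises of at least 2-fold with the smallest p included Prrc2c, Zbed6 and Gmeb1. Prrc2c, a protein of stress granules, lay between 10.06 and 11.13 (median 10.52) in quadruple arrays, against 9.82, 9.5, 9.07 and 9.36 in the glands (difference 1.11, SE 0.16, limma adjusted p = 8.51e-06). Zbed6, a transposon-derived repressor of Igf2 in muscle, lay between 7.0 and 8.32 (median 7.71) in quadruple arrays, against 6.29, 6.4, 5.75 and 5.72 in the glands (difference 1.75, SE 0.27, limma adjusted p = 1.4e-05). Zbed6 lies within an intron of another gene, so its probe set may also read that gene's transcript. Gmeb1, a DNA-binding protein of the glucocorticoid response, differed by 1.12 (adjusted p = 4.76e-05 by limma). None of the 3 overlapped between groups. With the probe sets of each gene averaged, Prrc2c differed by 0.59, Zbed6 by 1.14 and Gmeb1 by 0.495, and each was still called.

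Fat and muscle genes were lower in quadruple breast, and they made most of the largest falls. All 12 measured white adipocyte genes fell (median -3.96), against 9.59% of all genes called lower. The adipocyte list mean lay between 5.75 and 11.96 (median 7.57) in quadruple arrays, against 12.19, 12.05, 12.32 and 11.98 in the glands. Quadruple 2 and 9 were nearest the glands, and no array overlapped. Adipoq, the hormone adiponectin, lay between 2.47 and 13.46 (median 7.55) in quadruple arrays, against 13.83, 13.92, 13.93 and 13.67 in the glands (difference -6.46, SE 1.57, limma adjusted p = 0.00354). Pparg, the master regulator of fat cell formation, lay between 4.01 and 9.61 (median 5.35) in quadruple arrays, against 9.13, 9.59, 9.93 and 9.5 in the glands (difference -3.99, SE 0.6, limma adjusted p = 1.16e-05). Lipe, the hormone-sensitive lipase that releases stored fat, differed by -3.94, SE 0.55, Retn, the hormone resistin, by -6.02, SE 0.91, and Cidec, a protein of large lipid droplets, by -6.3, SE 0.99.

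All 15 skeletal muscle genes fell (median -5.64), but unevenly over the arrays. The muscle list mean lay between 4.29 and 10.83 (median 4.69) in quadruple arrays, against 10.41, 11.61, 12.01 and 11.35 in the glands. Quadruple 5 (10.83) and 9 (10.66) were above the lowest gland, quadruple 1 and 12, of 1 animal, were at 9.6 and 9.54, and the other 15 were at 7.19 or lower. Myh4, a fast myosin heavy chain, lay between 2.64 and 11.17 (median 2.99) in quadruple arrays, against 10.27, 11.49, 12.51 and 11.83 in the glands (difference -6.93, SE 1.5, limma adjusted p = 0.00117). Tnnc2, the calcium-binding troponin of fast fibres, differed by -7.15, Myh1 by -6.36, Tnnt3 by -6.6 and Tnni2 by -6.18. Atp2a1, the calcium pump of fast muscle, differed by -4.96, and Actn3 and Pvalb, both of fast fibres, by -5.42 and -5.34.

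Enzymes of fat synthesis fell with the adipocyte genes. Of 17 members 13 fell and none rose (median -1.94). Agpat2, an enzyme of triglyceride assembly, lay between 7.27 and 10.59 (median 7.77) in quadruple arrays, against 9.55, 10.16, 12.09 and 10.73 in the glands (difference -2.64, SE 0.38, limma adjusted p = 4.84e-06). Pcx, pyruvate carboxylase, differed by -2.84, SE 0.48, and Slc25a1, which exports citrate for fat synthesis, by -1.45, SE 0.26. Quadruple 2 was in the gland range for all 3, and quadruple 9 for Pcx and Slc25a1. Pck1, which makes glycerol for triglycerides in fat, differed by -6.41, SE 1.07, Rbp4, the retinol carrier, by -6.72, SE 1.01, and Amy1, an amylase, by -6.87, SE 0.98.

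Mitochondrial genes fell by less. Of 12 fatty acid oxidation genes 6 fell (median -0.58), with Acadm at -1.24, Cpt2 at -1.03 and Hadhb at -0.92. Of 17 genes of the respiratory chain and citrate cycle 9 fell (median -0.33). Cox6a2, a cytochrome oxidase subunit of muscle and heart, differed by -3.64, SE 0.64, and the succinate dehydrogenase subunits Sdhb and Sdha by -0.71, SE 0.15, and -0.63, SE 0.15. Of 9 brown adipocyte genes 2 fell, Cox8b (-3.48) and Cox7a1 (-2.55), both also made in muscle. Without normal gland 3, 8 lipogenesis genes and 4 respiratory genes were called.

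The 10 falls of at least 2-fold with the smallest p were in genes outside the lists. Ranbp3l, which exports Smad proteins from the nucleus, lay between 2.71 and 4.13 (median 2.93) in quadruple arrays, against 4.76, 4.9, 4.86 and 4.69 in the glands (difference -1.77, SE 0.13, limma adjusted p = 4.09e-11). Slc6a13, a GABA and taurine transporter, lay between 3.59 and 5.51 (median 3.94) in quadruple arrays, against 6.21, 6.85, 5.9 and 6.63 in the glands (difference -2.4, SE 0.19, limma adjusted p = 5.68e-11). Ptgfr, the receptor of prostaglandin F, lay between 2.68 and 4.08 (median 3.06) in quadruple arrays, against 5.14, 5.82, 5.47 and 5.79 in the glands (difference -2.46, SE 0.2, limma adjusted p = 1.38e-10). No array overlapped in any of these. With the 2 groups alone the limma adjusted p were 4.82e-07 for Ranbp3l, 5.13e-07 for Slc6a13 and 1.55e-09 for Ptgfr. Akr1cl, an aldo-keto reductase, lay between 4.73 and 6.87 (median 5.24) in quadruple arrays, against 8.68, 10.35, 7.67 and 8.78 in the glands (difference -3.47, SE 0.33, limma adjusted p = 7.23e-09). Negr1, an adhesion protein anchored to the outer membrane, lay between 2.56 and 6.44 (median 2.81) in quadruple arrays, against 6.52, 7.09, 7.21 and 6.54 in the glands (difference -3.75, SE 0.36, limma adjusted p = 8.87e-09). Quadruple 2 was the highest quadruple array in Ranbp3l, Slc6a13 and Negr1, and quadruple 9 in Akr1cl. Irs3, an insulin receptor substrate of rodent fat, differed by -2.35, Paqr9 by -2.43, the sialyltransferase St6galnac5 by -2.19, the methyltransferase-like Mettl7b by -1.32 and the adhesion protein Opcml by -1.85, each with no overlap. In the covariate fit, all 10 of these genes were still called. All but Akr1cl and St6galnac5 were among the third of genes lowest in mean, so the filter on low genes left them untested. Ranbp3l was below the lowest array median (5.10) in every array. Without detection calls, such low values could not be set apart from background.

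**Figure D3:**
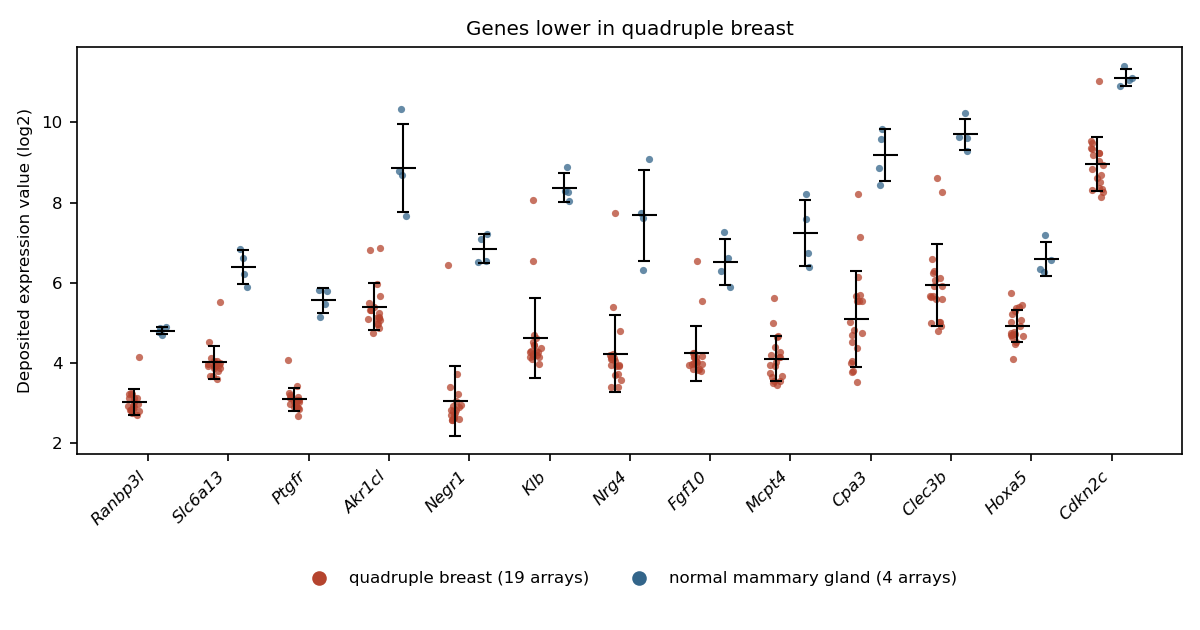
Deposited log2 values of 13 genes lower in quadruple breast, with 1 point per array (19 quadruple breast, left; 4 normal mammary gland, right), and the mean with SD. Quadruple arrays lie below every gland in Ranbp3l (-1.77 on the log2 scale) and Ptgfr (-2.46), while single quadruple arrays reach the gland range in Klb, Nrg4, Fgf10 and Cdkn2c.

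Mast cell genes were lower in quadruple breast. Of 8 mast cell and eosinophil genes 6 fell (median -1.74), and the list mean lay between 3.24 and 5.13 (median 3.92) in quadruple arrays, against 6.46, 5.3, 5.69 and 6.13 in the glands, without overlap. Cpa3, the carboxypeptidase of mast cell granules, lay between 3.53 and 8.22 (median 4.83) in quadruple arrays, against 9.84, 8.44, 8.86 and 9.59 in the glands (difference -4.14, SE 0.64, limma adjusted p = 1.93e-05). Mcpt4, the chymase of connective tissue mast cells, lay between 3.44 and 5.61 (median 4.03) in quadruple arrays, against 8.22, 6.38, 6.75 and 7.58 in the glands (difference -3.16, SE 0.36, limma adjusted p = 1.42e-07). Ms4a2, a chain of the IgE receptor, differed by -0.62, SE 0.1. The quadruple arrays were also below every gland in the adipocyte list mean, and 0 mast cell genes were called with the adipocyte and muscle covariates.

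Stromal and vessel genes were lower in part. Of 13 fibroblast genes 7 fell (median -1.61). Clec3b, tetranectin of the tissue matrix, lay between 4.78 and 8.61 (median 5.66) in quadruple arrays, against 9.62, 9.3, 9.64 and 10.24 in the glands (difference -3.75, SE 0.49, limma adjusted p = 1.49e-06). Gsn, the actin-severing protein gelsolin, differed by -2.97, SE 0.51, and Pi16, a marker of adventitial fibroblasts, by -2.96, SE 0.56; neither overlapped between groups. By contrast, 1 of 20 collagen and fibrillar matrix genes fell, Lum (-2.61), and the median of that list was -0.14. Of 18 matrix proteases and inhibitors 2 fell, near the 9.59% of all genes called lower: Timp4 (difference -3.99, SE 0.53, limma adjusted p = 1.8e-06) and Timp2 (difference -1.4, SE 0.33, limma adjusted p = 0.00301), both inhibitors of metalloproteinases.

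Of 14 endothelial genes 9 fell (median -0.94). Tek, the receptor of the angiopoietins, lay between 3.45 and 7.05 (median 5.64) in quadruple arrays, against 6.87, 7.65, 7.73 and 7.9 in the glands (difference -2.03, SE 0.45, limma adjusted p = 0.00153). Erg, a transcription factor of endothelium, differed by -1.11, SE 0.29, and Sox17, of arterial endothelium, by -0.92, SE 0.27. As the mean of its probe sets Erg differed by -0.46 and was not called (adjusted p = 0.0906 by limma). Quadruple 2 and 9 were among the highest 3 quadruple arrays in Tek and Sox17. Of 10 pericyte and smooth muscle genes 2 fell, Mcam (-0.9) and Des (-2.4), which skeletal muscle also makes. Of 6 lymphatic genes none was called (1 at an unadjusted p under 0.05), with Lyve1 at -2.14 (adjusted p = 0.0705 by limma) and Mmrn1 at -0.77. Without normal gland 3, 2 endothelial genes were called, with 5 without gland 2 and 3 without gland 4; Lum was lost when any 1 gland was left out.

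Genes of growth hormone and insulin action were lower in part. In IGF and insulin signalling 5 of 16 genes fell and 1 rose, and all 19 list means were below the glands. Ghr, the growth hormone receptor, lay between 6.17 and 11.25 (median 7.83) in quadruple arrays, against 11.93, 12.03, 11.24 and 11.37 in the glands (difference -3.6, SE 0.55, limma adjusted p = 1.78e-05). Igfbp6, a binding protein that prefers IGF-II, lay between 4.52 and 9.27 (median 6.67) in quadruple arrays, against 9.998, 9.4, 10.08 and 10.9 in the glands (difference -3.36, SE 0.62, limma adjusted p = 0.000166). Insr, the insulin receptor, differed by -0.84, SE 0.21. Igfbp2, another IGF binding protein, went the other way and lay between 7.62 and 12.24 (median 10.74) in quadruple arrays, against 9.76, 6.32, 7.52 and 8.04 in the glands (difference 2.26, SE 0.71, limma adjusted p = 0.0256). That rise was not called without normal gland 2, 3 or 4.

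Fgf10, a mesenchymal ligand of mammary bud and fat pad, lay between 3.79 and 6.55 (median 4.01) in quadruple arrays, against 6.61, 7.26, 6.29 and 5.9 in the glands (difference -2.26, SE 0.3, limma adjusted p = 1.91e-06). Klb, the co-receptor of endocrine FGFs in fat and liver, lay between 3.96 and 8.07 (median 4.29) in quadruple arrays, against 8.27, 8.88, 8.29 and 8.04 in the glands (difference -3.69, SE 0.42, limma adjusted p = 9.85e-08). They were the only 2 called among 15 FGF genes. Nrg4, an adipose ligand of ErbB4, lay between 3.39 and 7.74 (median 4.03) in quadruple arrays, against 6.3, 7.74, 9.09 and 7.61 in the glands (difference -3.5, SE 0.48, limma adjusted p = 2.24e-06), and was the only call among 13 genes of the EGF receptor family (3 without quadruple 9). In each of the 3 genes quadruple 2, the array with the highest adipocyte mean, was the single one inside the gland range. Of 13 ERK feedback genes 3 rose: the phosphatases Dusp5 (1.26) and Dusp6 (0.99), which dampen ERK, and the transcription factor Etv4 (1.81), which ERK induces. Dusp6 was not called when any 1 gland was left out. Of 19 PDGF, VEGF and angiopoietin genes 6 fell, including Vegfb (difference -1.16, SE 0.26, limma adjusted p = 0.00138) and Vegfd (difference -1.88, SE 0.47, limma adjusted p = 0.00441), and 3 were called when any 1 gland was left out.

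Ctnnb1 was not called on its brightest probe set. It lay between 12.37 and 13.36 (median 12.78) in quadruple arrays, against 12.94, 12.44, 12.59 and 12.7 in the glands (difference 0.18, SE 0.13, limma adjusted p = 0.385), and the probe set does not tell a stabilised protein from the normal one. The difference was 0.87 as the mean of all its probe sets (limma adjusted p = 0.0832) and 0.26 with array weights, where it was called (adjusted p = 0.018). Axin2, a direct Wnt target that feeds back on the pathway, lay between 4.99 and 9.49 (median 8.48) in quadruple arrays, against 9.07, 7.09, 6.88 and 7.19 in the glands (difference 0.32, SE 0.67, limma adjusted p = 0.822). Normal gland 1 was higher in Axin2 than all but 1 quadruple array, and glands 2 to 4 lay at 7.19 or lower; by their labels glands 1 and 2 both came from animals with Bcat. Of 13 Wnt feedback targets 1 was called, Cd44 (difference 1.13, SE 0.37, limma adjusted p = 0.0345), a hyaluronan receptor. The median of the list was 0.48, with 0.9 without normal gland 1, 0.25 without gland 2, 0.42 without gland 3 and 0.27 without gland 4. Lef1, the transcription factor partner of beta-catenin, was not called (difference 0.48, SE 0.53, limma adjusted p = 0.621). None of 14 Wnt ligands was called by limma (1 at an unadjusted p under 0.05); Wnt2 differed by -1.75 and Wnt6 by 0.82. Wnt2 was called on animal means (adjusted p = 0.0372 by limma) and without quadruple 8 (adjusted p = 0.02). Of 13 secreted modulators 2 fell, the inhibitor Sfrp5 of fat (difference -2.64, SE 0.46, limma adjusted p = 9.57e-05) and Sfrp4 (difference -1.16, SE 0.31, limma adjusted p = 0.00742). Of 14 receptors Fzd4 fell (difference -3.26, SE 0.51, limma adjusted p = 1.93e-05) without overlap, and Fzd6 rose (difference 0.69, SE 0.22, limma adjusted p = 0.0286). Cd44 was lost without normal gland 2, 3 or 4, Fzd6 without 1, 2 or 4, and Sfrp4 without 4.

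Of 20 Hox genes 6 fell and none rose. Hoxa5, a regulator of thoracic identity and mammary epithelium, lay between 4.1 and 5.74 (median 4.76) in quadruple arrays, against 6.28, 6.57, 7.2 and 6.34 in the glands (difference -1.68, SE 0.22, limma adjusted p = 1.44e-06), without overlap. Hoxc8 lay between 3.32 and 9.27 (median 4.54) in quadruple arrays, against 9.06, 9.75, 9.02 and 8.73 in the glands (difference -3.99, SE 0.81, limma adjusted p = 0.000564), with quadruple 2 in the gland range. Hoxc5 differed by -0.47, SE 0.14. Tissue regions of the animals were not given in the labels, and the part of body position in these differences was not tested. Without normal gland 2 or 3, 3 Hox genes were called.

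Epidermal genes made most of the 10 largest rises, and they varied widely among arrays. Of 11 suprabasal and wound keratins 1 rose, Krt79, and all 11 differences were positive (median 3.44). Of 19 cornified envelope genes 3 rose, with all 19 positive (median 2.85). Of 13 desmosome genes 6 rose and 1 fell (median 1.87). Dsc3, a cadherin of the desmosomes that join epidermal cells, lay between 3.72 and 11.74 (median 10.34) in quadruple arrays, against 9.46, 3.21, 3.64 and 3.78 in the glands (difference 4.2, SE 1.2, limma adjusted p = 0.0134). Krt79, a keratin of the hair canal, lay between 5.39 and 13.95 (median 11.76) in quadruple arrays, against 11.46, 6.67, 5.51 and 5.82 in the glands (difference 3.95, SE 1.3, limma adjusted p = 0.0335). Grhl3, which drives the epidermal barrier, lay between 3.01 and 8.8 (median 7.89) in quadruple arrays, against 5.67, 2.71, 3.0 and 3.14 in the glands (difference 3.34, SE 1.06, limma adjusted p = 0.0262). Normal gland 1 stood above the other glands in each, and 4 to 8 quadruple arrays lay within the gland range of these genes.

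Calml3, an epithelial calmodulin-like protein, lay between 7.2 and 12.999 (median 12.04) in quadruple arrays, against 9.84, 7.15, 6.93 and 7.34 in the glands (difference 3.25, SE 1.09, limma adjusted p = 0.037), and its 3 arrays within the gland range were quadruple 2, 8 and 9. The protease Asprv1 and the secreted Dmkn of the granular layer differed by 3.67, SE 1.28, and 3.6, SE 1.23, the serpin Serpinb11 by 4.23, SE 1.39, and the thioesterase Them5 by 4.23, SE 1.39. The desmosomal Perp and Dsc2 rose (2.06 and 2.3), as did Jup, plakoglobin (1.17), while Pkp2, the plakophilin of simple epithelium and heart, fell (difference -1.79, SE 0.55, limma adjusted p = 0.0218). Without normal gland 2 or 4 no desmosome gene was called, and without normal gland 2, 3 or 4 no cornified gene or suprabasal keratin was. Them5 was not called as the mean of its probe sets (2.75, adjusted p = 0.0553 by limma). Without normal gland 1 those counts were 7 desmosome, 3 cornified and 4 keratin genes. Serpinb11 and Calml3 were not called without normal gland 2, 3 or 4, nor Them5 without normal gland 2 or 4.

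Car12, a carbonic anhydrase of the cell surface, overlapped less between groups. It lay between 6.47 and 10.42 (median 9.61) in quadruple arrays, against 7.94, 5.01, 4.48 and 5.13 in the glands (difference 3.69, SE 0.59, limma adjusted p = 2.92e-05). Quadruple 2, 5 and 9 were in the gland range, and 16 arrays were above every gland. As the mean of its probe sets Car12 differed by 1.46 and was still called. Itgb4, a hemidesmosome integrin that anchors basal cells, lay between 7.43 and 9.73 (median 8.87) in quadruple arrays, against 7.91, 6.96, 7.87 and 7.65 in the glands (difference 1.2, SE 0.3, limma adjusted p = 0.00438). Col7a1, the anchoring fibril collagen, differed by 1.6, SE 0.43; both rose among 17 adhesion genes, where Lama2, Lama4 and Dst fell by 1.69, 0.9 and 1.53. Dst and the oxytocin receptor Oxtr (-2.55) were the 2 falls among 14 basal genes. With the probe sets of each gene averaged, neither Dst (-0.45, limma adjusted p = 0.336) nor Lama4 (-0.16, adjusted p = 0.804) was called. Lama4 was lost when any 1 gland was left out, Lama2 without the arrays low in Xist, Dst without normal gland 3, and Oxtr without normal gland 2, 3 or 4; the basal list had 1 call without normal gland 3 and 5 without quadruple 9.

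**Figure D4:**
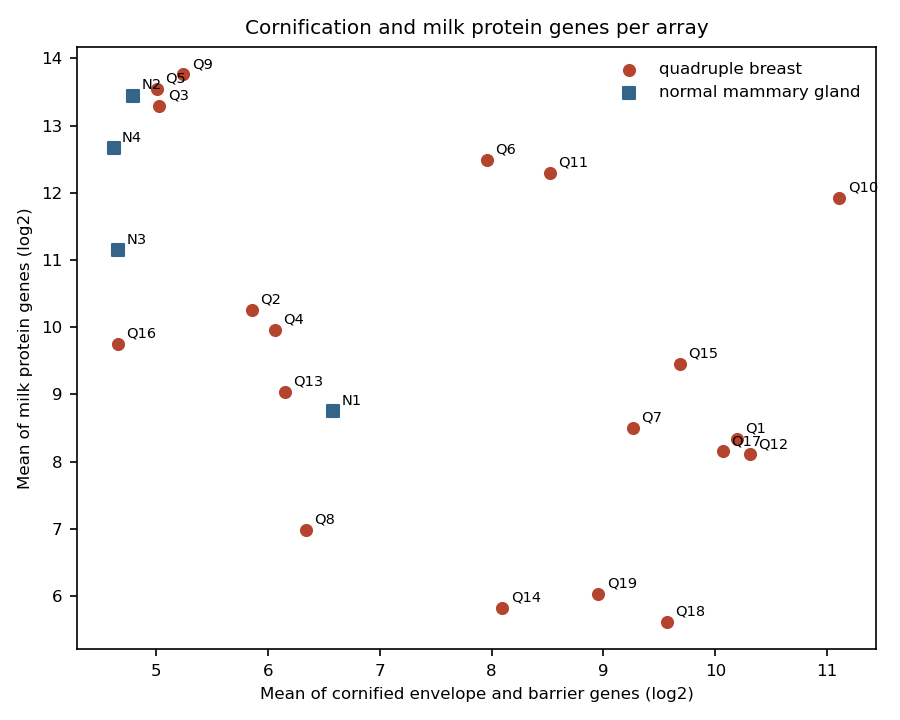
Mean of 19 cornified envelope genes (horizontal axis) and of 10 milk protein genes (vertical axis), both log2, for 19 quadruple breast arrays (Q1 to Q19, circles) and 4 normal mammary gland arrays (N1 to N4, squares). Quadruple 10 lies farthest right at 11.11, and quadruple 3, 5 and 9 lie at the upper left with normal glands 2, 3 and 4.

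The 10 genes most variable among the quadruple arrays were epidermal or milk genes. Krt6b, a wound keratin, lay between 3.2 and 14.28 (median 11.76) in quadruple arrays, Krt1, a suprabasal keratin, between 3.44 and 13.74 (median 10.17), and Rptn, a cornified envelope protein, between 2.32 and 13.52 (median 9.7). The cornified envelope gene Sprr1b lay between 2.42 and 13.29 (median 9.23), Sprr2d between 4.28 and 13.99 (median 10.7) and Lce1c between 2.22 and 12.21 (median 6.17). The protease inhibitor Stfa3 lay between 2.93 and 13.33 (median 10.98) and Csta1 between 2.2 and 12.81 (median 9.6). In all 8 of these genes normal gland 1 was the highest gland. Csn1s2a, a casein, lay between 2.86 and 14.38 (median 8.86) in quadruple arrays, against 7.73, 14.27, 13.46 and 14.15 in the glands. Wap, the whey acidic protein, lay between 4.64 and 14.57 (median 5.33) in quadruple arrays, against 4.84, 14.55, 11.06 and 13.53 in the glands. The milk protein list had no limma call among 10 genes (0 at an unadjusted p under 0.05). All 10 differences were negative (median -1.58), and the list mean lay between 5.62 and 13.76 (median 9.45) in quadruple arrays, against 8.75, 13.45, 11.15 and 12.67 in the glands. Milk means were highest in quadruple 9 (13.76), 5 (13.54) and 3 (13.29), and these 3 had cornified means of 5.25, 5.01 and 5.03. Not every milk-high array was low in cornified genes: quadruple 10 was at 11.93 for milk and 11.11 for cornified genes.

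Arrays of an animal were not always alike. Quadruple 1 and 12 differed 2-fold in 53 genes, quadruple 18 and 19 in 237. Quadruple 8, 9 and 10, all of 1 animal, differed 2-fold in 3242 to 3610 genes pairwise, while the 166 pairs of quadruple arrays from different animals differed in 406 to 4258 genes (median 2464). Milk means of quadruple 8, 9 and 10 were 6.98, 13.76 and 11.93, and their cornified means 6.34, 5.25 and 11.11. With only the first array of each quadruple animal by title, 3025 genes were called. That fit left out quadruple 9, and without quadruple 9 alone 3173 were called.

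**Figure D5:**
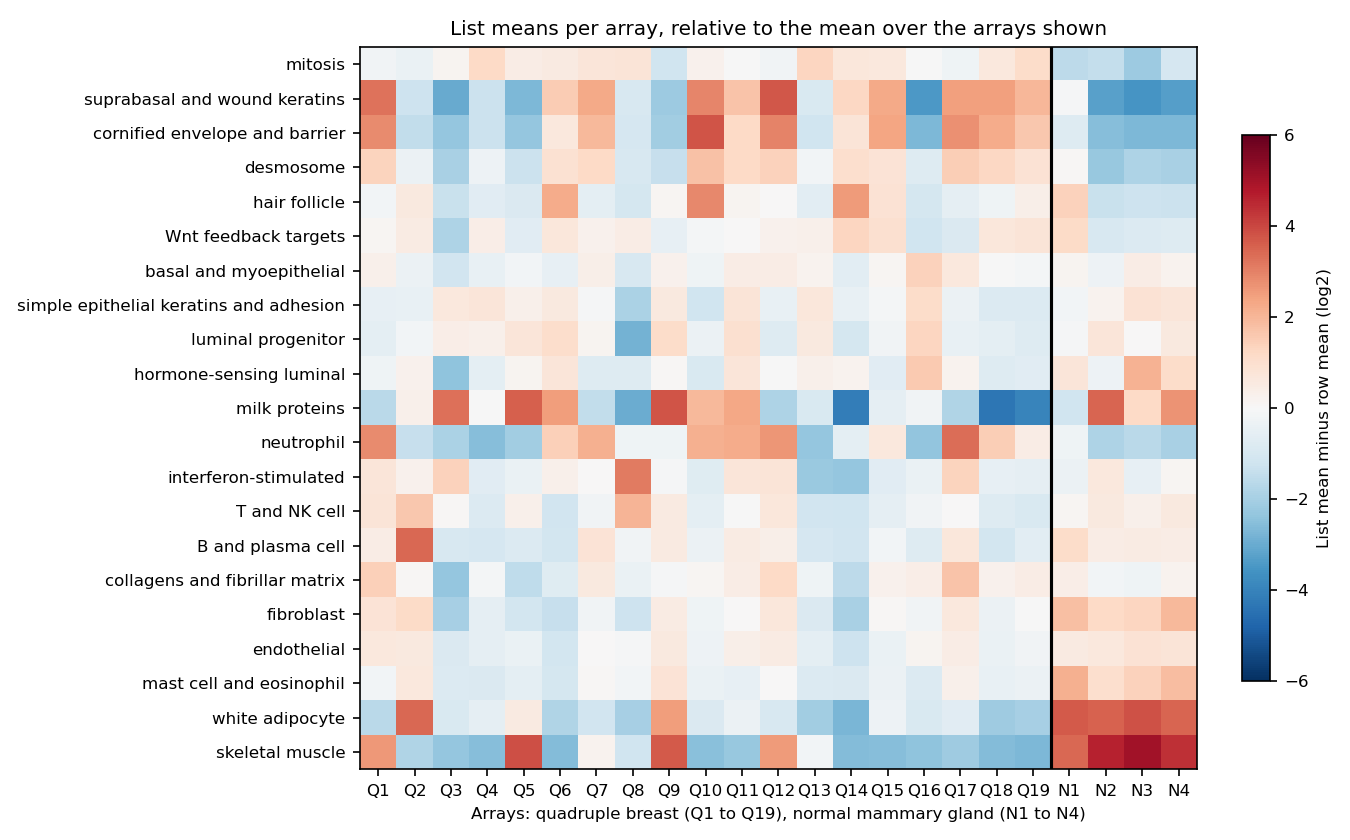
Mean of each gene list per array, as log2 relative to the mean over the 23 arrays shown, red above and blue below it; columns are quadruple breast (Q1 to Q19) and, right of the line, normal mammary gland (N1 to N4). The adipocyte, fibroblast and mast cell rows are red in all 4 glands, and Q2 and Q9 are the deepest red of the quadruple arrays in the adipocyte row.

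Luminal genes showed few calls. Esr1, the oestrogen receptor, lay between 5.33 and 9.73 (median 7.13) in quadruple arrays, against 10.15, 10.23, 11.07 and 10.42 in the glands (difference -3.0, SE 0.81, limma adjusted p = 0.00856), without overlap, and was the 1 call among 9 hormone-sensing luminal genes (median -1.13). None of 10 simple epithelial genes passed limma's test (1 at an unadjusted p under 0.05), with Krt19 at -1.91 and Krt18 at -0.76. None of 10 luminal progenitor genes passed (1 unadjusted), with Itga2, an integrin, at 0.54 and Ltf, lactoferrin, at -1.11. None of 16 hair follicle genes passed (3 unadjusted), with the transcription factors Dlx3 at 1.67 and Foxn1 at 1.59. Esr1 was not called without normal gland 3.

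Inflammatory genes varied widely among the quadruple arrays. None of 7 neutrophil genes (2 at an unadjusted p under 0.05) and none of 16 neutrophil chemokines and inflammatory cytokines (7) was called by limma. All differences in both lists were positive. Il1b, an inflammatory cytokine that stood in the neutrophil list, lay between 5.79 and 11.97 (median 7.64) in quadruple arrays, against 6.99, 6.0, 5.91 and 6.41 in the glands (difference 1.87, SE 0.78, limma adjusted p = 0.103). Its difference was also the median of that list, so the list does not hold neutrophil markers alone. Ptgs2, the inducible prostaglandin synthase, lay between 3.12 and 10.66 (median 6.53) in quadruple arrays, against 4.88, 2.74, 3.51 and 4.65 in the glands (difference 2.6, SE 1.0, limma adjusted p = 0.0738). Without quadruple 9 Ptgs2 was called (adjusted p = 0.0433 by limma). Stfa2l1, a neutrophil stefin, differed by 2.82 and Il1a by 1.9, neither called. The neutrophil mean was highest in quadruple 17, 1 and 12, at 10.99, 10.45 and 10.27, arrays that were also among the highest 4 in cornified genes.

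Of 13 macrophage genes 1 fell, the scavenger receptor Cd163 (difference -2.45, SE 0.68, limma adjusted p = 0.0105), and of 8 complement genes 3 fell, C2 (-2.22), C6 (-0.76) and C1ra (-2.09). Of 11 B and plasma cell genes 1 fell, Tnfrsf17 (-0.75). No T or NK cell gene among 12 was called by limma (1 at an unadjusted p under 0.05), with the granzyme Gzma at -1.84 and the chemokine Ccl5 at -1.26. No antigen presentation gene among 13 was called (1 unadjusted), with the peptide transporter Tap1 at 0.69 and B2m, the light chain of MHC class I, at -0.32. No interferon-stimulated gene among 13 was called (0 unadjusted), with Ifit3 at -1.37 and Oas1a at 0.55. The interferon list mean lay between 5.31 and 10.74 (median 7.56) in quadruple arrays, against 7.29, 8.24, 7.13 and 7.74 in the glands. Cd163 was lost without normal gland 1 or 3, Tnfrsf17 without gland 2, C1ra when any 1 gland was left out, and C6 without gland 4. Without quadruple 8 Gzma was called (limma adjusted p = 0.0267).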

How the data were processed

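Total RNA of 39 mouse tissues was labelled for Affymetrix arrays, per the labels' protocols. The deposited log2 values of 45101 probe sets were made with RMA, per the submitters' processing notes, which corrects background, normalizes between arrays and summarises probes; for its version, the sources used here give none. Without detection calls, low values could not be set apart from background. Of the probe sets 34958 carried 1 gene, 932 several and 9211 none, from the platform annotation updated through a RefSeq table (GRCm38.p6). A gene was represented by its brightest probe set, cross-hybridising sets only where it had no other (290 genes). The values spanned 1.65 to 14.61, array medians 5.10 to 5.27, and 0 columns were unused.

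All 39 arrays entered 1 limma fit (3.58.1, R 4.3.3) with a mean per group, animal as a random block (correlation 0.328) and eBayes with an intensity trend. Benjamini-Hochberg adjustment covered 18194 genes. The block weights arrays, so fitted differences can depart from differences of group means. On simulated data for this comparison the fit called 77 of 100 genes changed by 1 log2 unit and 90 of 100 changed by 2, with 9 false calls.

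The members and the 63 gene lists (865 of 927 entries measured) were chosen with earlier results of these data known. The genes named are the 10 largest rises and falls, the 10 of each with the smallest p among called genes at least 2-fold apart, up to 3 rises and 3 falls per list or the 2 smallest p where none passed, 11 fixed markers and the 10 most variable in quadruple arrays; clone and Riken names were skipped, and promoter genes outside this rule are said to be so. A gene of the recombination repair list that the rule names is not reported here. Replicate numbers follow accession order and pair nothing. Alternatives were no block, animal means, the 2 groups alone, a filter on low genes, cyclic loess, array weights, probe set means and no trend. Others were leaving out arrays, 1 array per quadruple animal, and adipocyte and muscle covariates. Leaving out quadruple 9 was chosen after seeing the data. Promoter sequences and starts are RefSeq's. Python 3.11.15, numpy 2.4.6, pandas 2.3.3 and matplotlib 3.10.9 were used.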

Additional observations from a re-analysis of the deposited data

Results flagged for a closer look

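Within the 4 normal glands, 185 named genes and 63 list means were examined for a single array whose gap to the nearest other exceeded Dixon's critical value, as a share of the whole range. The criterion was met by 24 genes and 8 list means, of which 22 were in normal gland 1 and 20 of those were high. Chance would give about 1 in 20 among independent items not chosen from these data. Most of these genes were named by values of the same arrays, and many are list members, so that rate is no yardstick for the count.

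Normal gland 1 was high in epidermal genes. Its values were 9.13 in Serpinb11, 9.46 in Dsc3, 9.47 in Asprv1, 5.67 in Grhl3 and 9.84 in Calml3, genes that rose in quadruple breast. The keratins Krt1 (8.83) and Krt6b (9.72) were high too, as were Rptn (7.19), Sprr1b (7.15) and Sprr2d (9.65) of the cornified envelope and the protease inhibitors Stfa3 (8.19) and Csta1 (7.15). Cdkn1a was at 10.34 and Axin2 at 9.07. Its list means were 8.56 for suprabasal and wound keratins, 6.59 for cornified envelope and barrier genes, 7.71 for hair follicle genes and 8.41 for Wnt feedback targets. The other 3 glands lay between 5.07 and 5.35, 4.62 and 4.8, 4.98 and 5.07, and 6.29 and 6.52 in those lists. Its means of TGF-beta and BMP genes (9.13) and of B and plasma cell genes (6.82) were high as well. It was low in the milk genes Glycam1 (4.40) and Csn1s2a (7.73), where the other glands lay at 12.28 or above.

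Normal gland 3 was low in Xist (3.49), Rrm2 (5.66) and Nop56 (8.69). Normal gland 2 was low in Mettl7b (4.44) and in the means of adherens junction genes (8.65) and of oncogenes of insertional screens (7.09). Normal gland 4 was high in Brca1 (6.24) and Pi16 (10.22) and low in Acadm (11.31) and Ankrd37 (4.12).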

How the results depend on the processing

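The count of called genes was 2769, and 6689 with array weights, 1729 without the 3 arrays low in Xist and 65 with the adipocyte and muscle covariates. Genes called higher numbered 3113, 534 and 2 in those fits, and genes called lower 3576, 1195 and 63. Leaving out 1 array gave 1654 to 3173 genes in all, 494 to 1279 higher and 1160 to 1894 lower; the low end is normal gland 3 and the high end quadruple 9. The other 8 fits gave 2462 to 3025 genes. No paired analysis was possible because the labels give these groups no shared replicate numbers. Of 144 called named genes 96 kept their direction and call in each setting that tested them, the covariates aside. There were 16 such settings, but the filter on low genes kept only 124 of the 144 in its fit. With the probe sets of each gene averaged, 7 of the 144 lost the call. They were Dst, Lama4, Erg, Them5, Egln3 (1.92), Fbxw7 (0.49) and Pik3ca (-0.08). Another 28 kept it with a difference moved by over 1.5 times, 27 of them to a smaller one. Among those made smaller were Car12 (1.46), Brca1 (0.73), Akr1cl (-1.79) and Klb (-1.86). Of 32 named genes not called, 24 were called with array weights. Among list genes, calls of epidermal, desmosome, glycolysis and endothelial genes depended on single glands. With 4 glands, genes of moderate difference change sides of the threshold when 1 is left out.

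With the covariates, counting named genes outside the adipocyte and muscle lists, 11 called genes kept their call, 99 lost it and 21 turned direction. The cause was not tested, and the groups do not overlap in the adipocyte mean. Differences that turned among called genes were Cdkn1a -0.15, Jup -0.12, Dst 0.18, Oxtr 0.39, Dsc2 -0.90, Cldn5 0.74, Etv4 -0.07, Dusp6 -0.078, Igfbp2 -0.11, Tek 0.12, Vegfd 0.32, Hoxc8 0.042, Cd163 0.068, Lum 0.57, Sox17 0.43, Des 0.22, Cox8b 0.44, Ankrd37 -0.32, Egln3 -0.021, Nr3c1 0.20 and Serpina3n 0.55. Among genes not called they were Krt19 0.44, Krt18 0.26, Ltf 1.31, Wap 0.38, Glycam1 2.39, Dlx3 -0.14, Foxn1 -0.30, Zeb2 0.35, Ccl5 1.16, Lyve1 0.30, Mmrn1 1.22, Ctnnb1 -0.043, Krt14 -0.081, Krt8 0.21, Epcam 0.65 and Axin2 -0.59. Xist differed by 1.15 with all arrays, by -0.24 without normal gland 3 and by 1.68 without normal gland 1.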

Other observations

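Clock genes were lower in part. Of 12 circadian genes 4 fell (median -0.45). Cry2, a repressor of the clock, lay between 5.54 and 7.74 (median 6.49) in quadruple arrays, against 7.41, 7.34, 8.14 and 7.86 in the glands (difference -1.25, SE 0.23, limma adjusted p = 0.000218). Nr1d1, the receptor Rev-erb alpha, differed by -0.94, SE 0.19, and Dbp, a clock output factor, by -1.75, SE 0.42. Dbp lay at 4.61 and 5.26 in the lowest quadruple arrays, 10 and 17, against 8.02, 6.77, 9.53 and 9.03 in the glands. The time of day of collection is not in the labels, and its part was not tested. Without normal gland 3, 2 clock genes were called.

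Of 19 genes of glycolysis and hypoxia 3 rose, against 5.63% of all genes called higher, and 2 fell, near the 9.59% called lower. Beside Car12, Ankrd37, induced by HIF, lay between 4.33 and 9.16 (median 6.31) in quadruple arrays, against 4.72, 4.67, 4.64 and 4.12 in the glands (difference 1.74, SE 0.56, limma adjusted p = 0.0304). Egln3, a prolyl hydroxylase that HIF induces, differed by 2.05, SE 0.72. Bnip3, a mitophagy receptor that HIF also induces, fell (difference -2.25, SE 0.51, limma adjusted p = 0.00199), as did the muscle-rich aldolase Aldoa (-0.79). Ankrd37 and Egln3 were lost when any 1 gland was left out, Aldoa without gland 2, 3 or 4, and Bnip3 was called in each of those fits.

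Lists of genes often hit in insertional screens are set beside 5.63% of all genes called higher and 9.59% called lower. Nothing is read from their counts. Of 24 oncogenes 2 rose, the receptor Notch1 (difference 0.92, SE 0.26, limma adjusted p = 0.0137) and the GTPase Nras (difference 0.51, SE 0.11, limma adjusted p = 0.00132), and 3 fell, Fgf10, Mn1 (-1.34) and Pik3ca (-0.27). Of 17 tumour suppressors 1 rose, the ubiquitin ligase subunit Fbxw7 (0.54). Without normal gland 3 or 4, 3 oncogenes were called, and Fbxw7 was lost without normal gland 1, 3 or 4.

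Single genes passed in other pathways. Notch1 was the 1 call among 15 Notch genes, Hhip, a decoy of Hedgehog ligands, among 11 Hedgehog genes (-0.35), and Tgfbr3, a TGF-beta co-receptor, among 21 TGF-beta and BMP genes (difference -1.49, SE 0.43, limma adjusted p = 0.0145). Cldn5, an endothelial claudin, was the 1 call among 15 tight junction genes (-1.48), Jup among 10 adherens junction genes, and Atf4, which controls amino acid supply, among 13 genes of the unfolded protein response (0.33). Rbp4 and the glucocorticoid receptor Nr3c1 (-1.05) fell among 13 hormone carriers and nuclear receptors, Serpina3n fell (-1.86) and Serpinb11 rose among 9 serpins, and S100a1 fell (-1.32) among 10 S100 genes. Cldn5, Serpina3n, Cdh19 and Pik3ca were lost when any 1 gland was left out, Hhip without gland 1 or 2, Tgfbr3 and Notch1 without gland 4, Mn1 without gland 3, Nr3c1 and S100a1 without gland 2, and Atf4 without gland 1 or 3. Pmp22 (-2.2), a myelin protein, and Cdh19 (-1.71), a Schwann cell cadherin, fell among 7 nerve genes. None of 12 epithelial-mesenchymal transition genes was called by limma (4 at an unadjusted p under 0.05), with the repressors Zeb1 at -1.31 and Zeb2 at -1.36. Zeb1 was called on animal means (adjusted p = 0.0224 by limma), without quadruple 8 (adjusted p = 0.0126) and without the third of genes lowest in mean (adjusted p = 0.0499), and differed by -0.39 as the mean of its probe sets (adjusted p = 0.233).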
